A study of Mus musculus with 24 samples.

Results

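Gene expression in the heart of wild type mice was compared with that in the brain of the same mice. The comparison used 8 of the 24 bead arrays of a study of the Kctd1 gene, namely all arrays labelled wild type heart and wild type brain, 4 of each, from 4 mice that each gave 1 heart and 1 brain array. The mice were of the inbred strain C3HeB/FeJ, 18.5 weeks old and untreated as far as the labels say. In the other mice 1 Kctd1 allele carried the point mutation L27N. Whole-tissue total RNA was amplified and labelled as complementary RNA (cRNA) and hybridised to Illumina mouse arrays, on which each gene is read by 1 or more probes of fixed sequence. Hearts were on the arrays numbered 9 to 13 in the labels and brains on those numbered 1 to 5, so tissue and array number cannot be told apart.

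Muscle cells fill most of the volume of the adult heart, and their sarcomeres slide actin along myosin when calcium is released from the sarcoplasmic reticulum. Those cells are packed with mitochondria and draw most of their fuel from fatty acids, while fibroblasts, capillary endothelium, mural cells and macrophages make up many of the other nuclei. The brain holds neurons, which signal through synaptic vesicles and ligand-gated channels, together with astrocytes, myelinating oligodendrocytes, microglia and vessels sealed by a barrier, and it runs mainly on glucose. In whole tissue, more cells of a type and more RNA per cell cannot be told apart.

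Between 11838 and 12649 of 25697 probes were detected per heart array, against 12358 to 12929 per brain array, at a detection p under 0.05. Over the probes tested, arrays of heart correlated with each other at 0.990 to 0.993, those of brain at 0.992 to 0.994, and heart with brain arrays at 0.644 to 0.652. The first principal component held 96.9% of the variance and separated the tissues, and no array stood apart from its group. Checked against the labels, the heart muscle genes Myh6, Actc1, Tnni3 and Ryr2 were detected on no brain array, and the neuronal gene Syt1 and the myelin genes Mog and Mobp on no heart array. Not every marker was absent from the other tissue. The heart muscle gene Nppa was detected on 2 brain arrays, and the myelin gene Mbp on all heart arrays, both far dimmer there. The brightest 100 probes took 23.4 to 25.3% of the background-corrected signal on heart arrays, against 17.4 to 18.2% on brain arrays. Bead intensity is not a count of molecules, and levels of different probes are not set against each other.

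Heart and brain differed widely. Of 10043 genes tested, each read by its brightest probe, 1855 (18.5%) were called higher in heart and 1876 (18.7%) lower, a call being an adjusted p under 0.05 and a difference of 2-fold or more. Counted by probe, 2624 of 14514 (18.1%) were higher in heart and 2437 (16.8%) lower, and 78.0% passed the adjusted p alone. The test was limma's moderated test on normalized log2 intensity with the mouse as a block, and a difference below, or a plain number in parentheses after a gene, is heart minus brain on that log2 scale. Large differences were more often on the side of brain, with 266 genes 8-fold or more higher in heart and 487 that far lower. Of the genes called higher, 73.5% were detected on all 4 brain arrays and 13.6% on none. Of the genes called lower, 56.1% were detected on all 4 heart arrays and 28.3% on none. For a gene detected on no array of the dimmer tissue only a bound can be given, written as at least so many fold against the faintest signal detected there. A probe that entered the test through the brighter tissue alone was likely to differ through the filter itself. The counts of gene lists below are therefore descriptions, and they include only members that passed the detection filter.

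**Figure D1:**
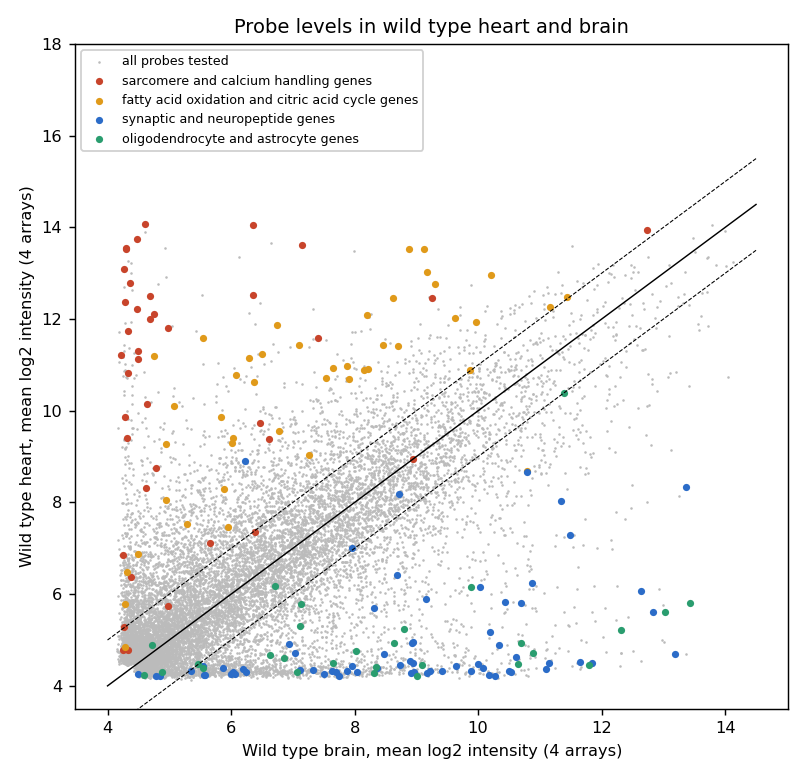
Each point is a probe, with its mean normalized log2 intensity over 4 wild type heart arrays on the vertical axis and over 4 wild type brain arrays on the horizontal axis. The solid line marks equal levels and the dashed lines a 2-fold difference. Sarcomere, calcium handling and fatty acid oxidation genes lie mostly above the lines, many at the left edge where brain signal is at background, and synaptic, neuropeptide and glial genes lie mostly below them.

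Genes of the sarcomere and its Z-disc were among the largest differences of heart. 22 of 24 tested members were called higher, none lower, with a median difference of 6.90, or 6.81 with undetected genes at their bound, against 0.01 over all genes tested, and 11 of the 24 were detected on no brain array. Myl2, the regulatory light chain of ventricular myosin, had log2 intensities of 14.02, 14.05, 14.12 and 14.12 in heart, against 4.60, 4.79, 4.69 and 4.33 in brain, listed here and below for mice 1 to 4 in the same order. The 2 tissues did not overlap, as at 73.0% of all genes tested, and differed by 9.48 (SE 0.10, adjusted p = 5.49e-15). Myh6, the fast alpha myosin heavy chain that predominates in adult mouse ventricle, read 13.50, 13.61, 13.50 and 13.59 in heart, against 4.35, 4.22, 4.20 and 4.42 in brain. No brain array detected it, so it was at least 509.5-fold higher in heart (adjusted p = 5.49e-15). Its slow counterpart Myh7, which predominates before birth in the mouse, read 7.03, 6.76, 6.77 and 6.88 in heart, against 4.19, 4.27, 4.25 and 4.29 in brain, and was at least 4.94-fold higher in heart (adjusted p = 5.42e-11).

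Most other genes of the filaments, Z-disc and M-band went the same way. Bounded from below, heart exceeded brain by at least 499.9-fold for Actc1, the cardiac alpha actin, and by at least 299.5-fold for Ttn, the giant spring titin. Csrp3 (muscle LIM protein) was at least 370.2-fold higher in heart (adjusted p = 5.49e-15), and Ankrd1, a stretch-sensing ankyrin repeat protein, was at least 225-fold higher in heart (adjusted p = 5.49e-15). Among members with signal on all 8 arrays, Tnnc1, the calcium-binding troponin, differed by 7.68 (SE 0.09, adjusted p = 7.02e-15), Mybpc3, the myosin-binding protein C of the heart, by 7.35 (SE 0.11, adjusted p = 2e-14), and Des, the muscle intermediate filament desmin, by 6.82 (SE 0.09, adjusted p = 1.14e-14). Tnni3, the cardiac troponin I, was at least 39.6-fold higher, and Myl3 differed by 9.27. The atrial light chains were higher too, Myl7 being at least 101-fold higher and Myl4 differing by 6.48. Tcap (7.83), Actn2 (6.18), Pdlim5 (6.81), Myom1 (6.64) and Myoz2 (at least 146-fold higher) belong to the Z-disc and M-band. Tpm1, a tropomyosin used in both tissues, differed by 0.02 and Lmod2 was at least 1.16-fold higher, and neither was called.

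The promoters of Mybpc3, Myoz2 and Des are shown because all are higher in heart and each matches 2 patterns searched for heart transcription factors. The windows run from 250 bases before to 50 after the RefSeq start in GRCm38.p6, in the direction of transcription. Capitals mark GATAAG, read by GATA factors, and CTA, any 4 letters, TAG, a loose pattern for MEF2, both searched on both strands. With its 4 middle letters left free, the second pattern also matches letters that MEF2 need not bind. Mybpc3 lies at chr2:91117894-91118193 (plus strand), Myoz2 at chr3:123034938-123035237 (minus strand) and Des at chr1:75360042-75360341 (plus strand).
Mybpc3: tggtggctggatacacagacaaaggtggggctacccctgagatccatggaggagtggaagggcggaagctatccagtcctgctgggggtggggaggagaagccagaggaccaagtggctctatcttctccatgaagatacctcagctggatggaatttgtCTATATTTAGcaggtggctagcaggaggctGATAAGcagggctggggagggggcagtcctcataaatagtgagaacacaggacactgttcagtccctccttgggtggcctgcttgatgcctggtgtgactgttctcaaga
Myoz2: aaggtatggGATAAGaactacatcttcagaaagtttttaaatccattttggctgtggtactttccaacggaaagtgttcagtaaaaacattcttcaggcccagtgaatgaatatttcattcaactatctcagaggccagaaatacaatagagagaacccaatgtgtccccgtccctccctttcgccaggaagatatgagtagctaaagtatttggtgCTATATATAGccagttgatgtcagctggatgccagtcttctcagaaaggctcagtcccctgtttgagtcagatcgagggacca
Des: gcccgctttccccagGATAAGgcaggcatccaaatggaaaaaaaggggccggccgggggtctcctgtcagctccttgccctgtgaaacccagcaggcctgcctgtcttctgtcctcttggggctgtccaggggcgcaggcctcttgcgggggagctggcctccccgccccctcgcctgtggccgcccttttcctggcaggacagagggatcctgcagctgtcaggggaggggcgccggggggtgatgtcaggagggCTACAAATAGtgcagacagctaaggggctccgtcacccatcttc

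Over all genes 8-fold or more higher in heart, 198 of 266 had a promoter in the RefSeq table, and GATAAG was in 12.6% of these and the MEF2 pattern in 7.58%. Among 375 promoters of genes 8-fold or more lower the shares were 4.8% and 3.47%, and among all 8114 tested genes with a promoter 5.04% and 3.22%. The whole table of 27025 promoters held GATAAG in 7.43% and the MEF2 pattern in 3.7%. TATAAA and AAGGTCA, also searched, were in 12.6% and 6.06% of the promoters 8-fold or more higher in heart. Their shares were 8.53% and 2.93% among those lower, 8.1% and 3.14% among tested genes, and 14.2% and 4.66% in the whole table. Base composition moved with these sets, with a median of 9.5 CpG and 57.3% G and C in promoters higher in heart, against 17 and 61% in those lower, and its part in the shares was not tested. Of 21 tested sarcomere genes with a promoter, GATAAG was in 5 and the MEF2 pattern in 5, and only the genes shown held both. Of 44 tested ribosomal genes with a promoter, 10 held GATAAG and none the MEF2 pattern. A match of letters is a description and not a site in use.

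Calcium handling followed the sarcomere. Of 15 tested members 12 were higher in heart and none lower. Pln, phospholamban, the brake on the sarcoplasmic calcium pump, read 11.03, 10.82, 10.71 and 10.75 in heart, against 4.19, 4.27, 4.47 and 4.40 in brain, which made it at least 77.2-fold higher in heart (adjusted p = 6.35e-14). Hrc, a histidine-rich calcium-binding protein of the reticulum, differed by 7.73 (SE 0.09, adjusted p = 7.99e-15), Sln, sarcolipin, by 7.31 (SE 0.10, adjusted p = 1.33e-14), and Casq2, the cardiac calsequestrin, by 5.50 (SE 0.10, adjusted p = 1.5e-13). Ryr2, the release channel of the reticulum, was at least 3.51-fold higher in heart (adjusted p = 2.01e-09). Atp2a2, the calcium pump itself, is also used in neurons and averaged 13.95 ± 0.02 in heart and 12.73 ± 0.11 in brain (SD, n = 4 each), a difference of 1.21. Slc8a1, the sodium-calcium exchanger, differed by 3.26. Cacna1c, the pore of the L-type channel, was dim and not called, read at 4.77 in heart and 4.25 in brain.

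Natriuretic hormones and several channels were higher in heart. Nppa, atrial natriuretic peptide, read 13.86, 13.86, 14.02 and 13.86 in heart, against 4.57, 4.50, 4.50 and 4.88 in brain. Heart and brain did not overlap, and the difference was 9.29 (SE 0.10, adjusted p = 5.49e-15). Nppb, the B-type peptide, was at least 118-fold higher in heart (adjusted p = 1.36e-14), and Corin, the protease that activates the atrial peptide, differed by 5.48 (SE 0.10, adjusted p = 1.1e-13). Of 14 channel genes 9 were higher, led by Popdc2 (at least 108-fold higher), Abcc9 (3.98) and Kcne1 (at least 8.91-fold higher), of which the first is a cyclic AMP-binding Popeye protein and the others are subunits of potassium channels. Hcn2 (−1.96), a pacemaker channel, and Kcnd2 (−1.77), a transient outward channel, were called lower. Without background correction 4 of the channel genes were called higher and 1 lower, and 5 were higher when the offset, a constant added before the log, was 50 in place of 16. Tnnt2 was not analysed here.

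Of 17 tested heart transcription factors and coactivators 10 were higher, or 6 without background correction. Gata6 (at least 28.4-fold higher), Myocd (at least 10.9-fold higher), the coactivator myocardin, Nkx2-5 (3.34), Smyd1 (at least 4.15-fold higher), Tbx20 (at least 2.78-fold higher) and Irx4 (at least 2.65-fold higher) were called. Gata4 read 4.76, 5.00, 4.34 and 5.07 in heart, against 4.18, 4.12, 4.16 and 4.15 in brain. It separated the tissues, was at least 1.18-fold higher in heart and was not called, and no brain array detected it. Mef2c was the single member called lower, averaging 7.99 ± 0.29 in heart and 9.58 ± 0.13 in brain (SD, n = 4 each), and this gene also acts in cortical neurons and microglia. The metabolic regulators Esrra (1.55), Esrrb (2.37) and Ppargc1a (1.18) were higher, while Ppara was not called and was at least 1.13-fold higher.

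Fatty acid oxidation was higher almost throughout. 25 of 26 members were called higher and none lower, with a median of 3.86. Cpt1b, the muscle carnitine palmitoyltransferase that lets long-chain fatty acids into mitochondria, read 11.17, 11.14, 11.16 and 11.29 in heart, against 4.68, 5.03, 4.66 and 4.66 in brain, a difference of 6.43 (SE 0.10, adjusted p = 4.29e-14). Pdk4, the kinase that shuts pyruvate out of the citric acid cycle, read 11.13, 11.79, 11.56 and 11.91 in heart, against 5.53, 5.44, 5.60 and 5.62 in brain, a difference of 6.05 (SE 0.12, adjusted p = 2.61e-13). For both genes every heart array lay above every brain array. The acyl-CoA dehydrogenases, from very long to short chains Acadvl (4.32), Acadl (5.03), Acadm (3.84) and Acads (4.33), were all higher. Uptake and transport genes were higher as well, among them Lpl (4.42), the lipase of capillary walls, Fabp3 (4.66), the heart fatty acid-binding protein, and Slc25a20 (3.28), the carnitine carrier. Cd36, the main fatty acid transporter, was the exception that was not called and was at least 1.22-fold higher. Its probe was dim in heart too, at 4.84 there and 4.29 in brain, and was detected on 3 heart arrays and no brain array.

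The citric acid cycle and the respiratory chain were higher by less. 17 of 18 cycle genes were higher (median 2.70), from Idh2 (5.12), the NADP-linked isocitrate dehydrogenase, and Suclg2 (3.38) to Idh3a (1.02). Idh3b, a subunit of the NAD-linked enzyme, was called lower, with 8.85, 8.52, 8.74 and 8.65 in heart, against 10.73, 10.81, 10.82 and 10.78 in brain, a difference of −2.09 (SE 0.09, adjusted p = 5.23e-10). The 2 tissues did not overlap on this probe. Of 62 respiratory chain and ATP synthase genes 47 were higher and none lower, with a median of 1.54, and the count was 60 when arrays were shifted to a common median in place of quantile normalization. Ndufb10 (3.33), Ndufb2 (3.32), Uqcrb (3.21) and Cox7b (2.91) led, and Atp5b (−0.06), the catalytic beta subunit of ATP synthase, and Atp5g3 (0.28) were not called.

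**Figure D2:**
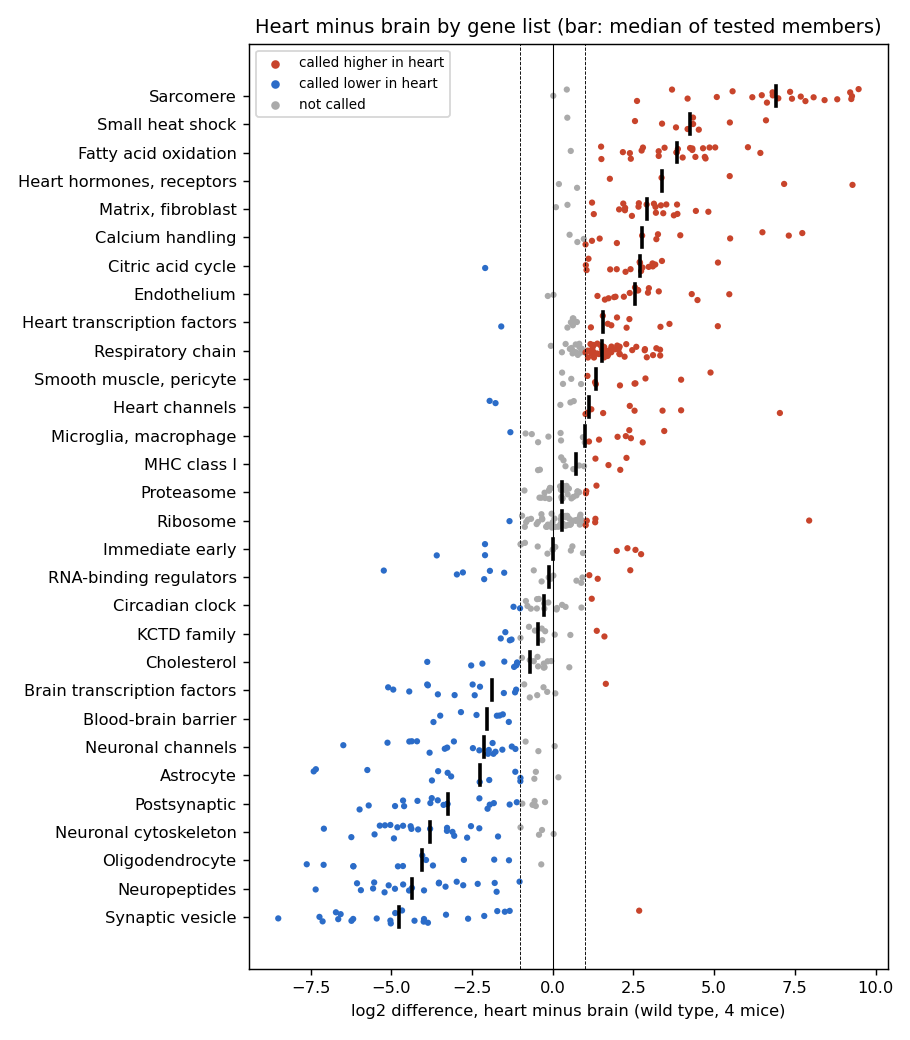
Each row is a gene list and each point a tested gene, placed by its log2 difference, heart minus brain, in 4 wild type mice. Black bars are the medians of the tested members, red points were called higher in heart, blue points lower and grey points not called, and dashed lines mark 2-fold. Sarcomere genes have the highest median (6.90) and synaptic vesicle genes the lowest (−4.78), with ribosome, proteasome and clock genes near 0.

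Where an enzyme has a muscle form and a form used in brain, the 2 forms often went opposite ways. Ckmt2, the sarcomeric mitochondrial creatine kinase, read 13.10, 13.24, 13.21 and 13.31 in heart, against 4.45, 4.32, 4.38 and 4.36 in brain. Its ubiquitous counterpart Ckmt1 read 5.41, 5.74, 5.37 and 4.96 in heart, against 11.57, 11.64, 11.66 and 11.49 in brain. Neither pair of groups overlapped, with Ckmt2 at least 405-fold higher in heart (adjusted p = 5.49e-15) and Ckmt1 differing by −6.22 (SE 0.11, adjusted p = 8.38e-14). In the cytosol Ckm, the muscle creatine kinase, was at least 142-fold higher in heart (adjusted p = 7.03e-15), and Ckb, the brain form, differed by −3.30 (SE 0.09, adjusted p = 3.51e-12). Enolase showed Eno3, the muscle form, at 12.45, 12.52, 12.54 and 12.63 in heart, against 5.46, 5.50, 5.66 and 5.46 in brain, a difference of 7.01 (SE 0.09, adjusted p = 1.18e-14). Eno2, the neuronal form long used as a marker of neurons, read 5.78, 5.66, 5.98 and 5.62 in heart, against 12.99, 13.00, 12.99 and 12.97 in brain, a difference of −7.22 (SE 0.09, adjusted p = 1.23e-14).

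Other pairs were less even. Pgam2 (6.81), the muscle phosphoglycerate mutase, was higher and Pgam1 (−1.11) lower. Aldoa (1.94) was higher and Aldoc (−7.34), the aldolase of astrocytes and Purkinje cells, lower. Pfkm (1.16) was higher and Pfkp (−2.09) lower. Hk2 (5.51), the insulin-regulated hexokinase, was higher while Hk1 (0.04) was not called. Both glycogen phosphorylases were higher, the muscle form Pygm (3.87) and the brain form Pygb (2.44), and so was Ldha (1.73). Of the glucose transporters, Slc2a4 (4.63), the insulin-responsive one, was higher, and Slc2a3 (−4.30), that of neurons, and Slc2a1 (−1.65), that of the blood-brain barrier, were lower. Cpt1c, the neuronal relative of Cpt1b, was at least 2.18-fold lower in heart (adjusted p = 1.23e-08).

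Cytochrome c oxidase has small subunits with tissue forms. Cox6a2, the muscle form, read 13.67, 13.73, 13.67 and 13.61 in heart, against 6.55, 6.75, 6.66 and 6.62 in brain, a difference of 7.02 (SE 0.09, adjusted p = 1.03e-14). Cox6a1, the liver form, which is also that of brain, read 10.74, 10.56, 10.52 and 10.52 in heart, against 12.68, 12.91, 12.94 and 12.74 in brain, a difference of −2.24 (SE 0.10, adjusted p = 4.66e-10). The groups did not overlap for either. Cox8b (7.96) and Cox7a1 (7.23), the muscle forms, were higher too, Cox8a (−1.44) was lower, and Cox7a2 (1.39) was higher. Beyond metabolism, the calmodulin-dependent kinase subunits Camk2a (−4.64), Camk2b (−4.19) and Camk2g (−1.31) were lower, and Camk2d (0.96), the heart form, was not called. The sodium pump subunits Atp1b1 (−2.29) and Atp1b2 (−4.30) were lower, as was Prkar1b (−3.83), a protein kinase A subunit of neurons, while Prkar1a (0.10) was not called. Tpm3 (1.40) was higher, and Fabp5 (−0.44) and Slc25a5 (−0.15) were not called.

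**Figure D3:**
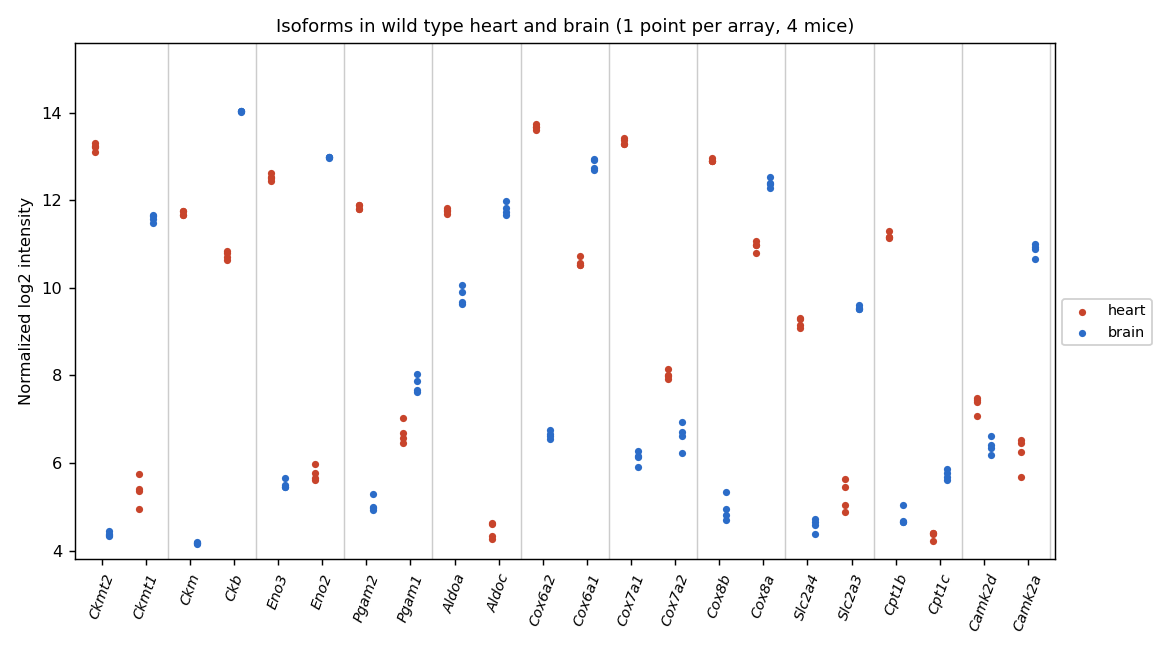
Normalized log2 intensity of 11 isoform pairs, with the form used in muscle left and the other form right in each panel. Red points are the 4 heart arrays and blue points, to their right, the 4 brain arrays. Red lies above blue for every left-hand gene, Camk2d least, and blue above red for every right-hand gene except Cox7a2.

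Chaperones of muscle and a set of other genes added to the heart side. 9 of 10 tested small heat shock genes and partners were higher, among them Hspb7 (at least 80.9-fold higher), Hspb6 (5.49), Hspb1 (4.52), Cryab (4.18), Bag3 (3.82) and the myosin chaperone Unc45b (4.35). Mb, myoglobin, the oxygen store of muscle, read 13.61, 13.52, 13.52 and 13.56 in heart, against 4.79, 5.00, 5.17 and 4.77 in brain. It was the largest fitted difference among called genes detected on all 8 arrays, 8.62 (SE 0.10, adjusted p = 7.99e-15). Rpl3l, a muscle relative of the ribosomal protein Rpl3, differed by 7.94 (SE 0.09, adjusted p = 8.59e-15), while Rpl3 itself was lower, at −1.34. Asb2 (6.32), an ubiquitin ligase subunit, was also among the 15 largest of that kind. Undetected in brain were Myzap (at least 113-fold higher), of the intercalated disc, Mybphl (at least 87.7-fold higher), a relative of myosin-binding protein H, Perm1 (at least 86.7-fold higher), a regulator of muscle mitochondria, and Yipf7 (at least 90.4-fold higher).

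On the side of brain the synaptic vesicle machinery differed most. 23 of 24 tested members were lower in heart, with a median of −4.78, or −4.62 with undetected genes at their bound, and 8 were detected on no heart array. Cplx1, complexin, which clamps vesicle fusion, read 5.42, 4.44, 4.62 and 4.27 in heart, against 13.25, 13.25, 13.08 and 13.19 in brain, a difference of −8.51 (SE 0.15, adjusted p = 9.7e-14). Syt1, the calcium sensor of fast release, read 4.41, 4.41, 4.26 and 4.19 in heart, against 10.48, 10.54, 10.40 and 10.58 in brain and was at least 59.4-fold lower in heart (adjusted p = 2.53e-14). In both cases all heart arrays lay below all brain arrays. Syp (−7.23), synaptophysin, Syn1 (−7.13), synapsin, Sh3gl2 (−6.57), endophilin, and Sv2a (−5.45) were lower, and Syngr3 (at least 60.6-fold lower) was too. The transporters that fill vesicles with glutamate, Slc17a6 (at least 89.6-fold lower) and Slc17a7 (−3.87), and with GABA, Slc32a1 (−6.65), were lower. Snap25 did not pass the detection filter, since its probe was detected on no array of either tissue. Syngr1 was called higher by its brightest probe and is taken up with the genes whose probes disagreed.

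Receptors, channels and the neuronal cytoskeleton followed. 18 of 23 tested postsynaptic genes were lower and none higher, and 13 were lower without background correction and 15 with an offset of 50. Gria2, the AMPA receptor subunit that sets calcium permeability, read 4.72, 4.45, 4.70 and 4.63 in heart, against 10.75, 10.44, 10.74 and 10.52 in brain, a difference of −5.99 (SE 0.09, adjusted p = 2.13e-14) with no overlap. Nrgn (at least 44.6-fold lower), the calmodulin buffer neurogranin, Gria1 (at least 23.7-fold lower), Dlg4 (at least 8.49-fold lower), the scaffold PSD-95, and Ppp1r1b (−4.61), the dopamine-regulated phosphatase inhibitor of striatum, were lower. 19 of 22 neuronal channel genes were lower, led by Kcnab2 (−6.49), Kcnk1 (−5.12) and Kcnc1 (−4.44), and 10 were without background correction. 21 of 25 cytoskeletal and neuronal marker genes were lower. Rbfox3, the nuclear antigen NeuN, read 4.32, 4.32, 4.34 and 4.73 in heart, against 11.55, 11.43, 11.58 and 11.51 in brain, a difference of −7.09 (SE 0.10, adjusted p = 1.92e-14). Stmn2, a tubulin-binding protein of growing axons, differed by −5.03 (SE 0.09, adjusted p = 8.8e-14) and Tubb4a by −6.24 (SE 0.09, adjusted p = 1.99e-14). Nefl and Tubb3 did not pass the filter.

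Neuropeptides and their processing proteins were lower in heart without exception among those tested. All 21 were called lower, against 18.7% of all genes tested. Of the 21, 16 were detected on no heart array and so entered the test through brain alone. The count lower was 17 without background correction and 18 with an offset of 50. Sst, somatostatin of interneurons, read 4.24, 4.42, 4.40 and 4.22 in heart, against 10.01, 9.79, 9.69 and 10.06 in brain, which made it at least 38.8-fold lower in heart (adjusted p = 2.26e-13). Scg5, the chaperone of a prohormone convertase, differed by −7.35 (SE 0.10, adjusted p = 1.68e-14). Scg2 (at least 51-fold lower), Cck (at least 47.6-fold lower), Vgf (at least 32.6-fold lower), Tac1 (at least 13.5-fold lower) and Vip (at least 8.78-fold lower) stood for widespread peptides. Npy (−4.36), which sympathetic nerves of the heart also carry, was detected on 1 heart array. Peptides of small hypothalamic cell groups were seen as well, with Pmch (at least 24.5-fold lower), Avp (at least 2.61-fold lower), Hcrt (at least 1.67-fold lower) and Oxt (−2.33). The granin Chgb differed by −5.53 (SE 0.10, adjusted p = 1.34e-13) and Chga (at least 6.56-fold lower) likewise.

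The promoters of Sst, Scg2 and Chgb are shown because they hold the letters of the cyclic AMP response element, searched as TGACGTC on both strands and set in capitals. Matches on both strands overlap in these windows, so the capitals run over 1 base more. That motif is bound by CREB, a factor that neuronal activity engages. The windows are those used for the heart genes, Sst at chr16:23890795-23891094 (minus strand), Scg2 at chr1:79439977-79440276 (minus strand) and Chgb at chr2:132781392-132781691 (plus strand).
Sst: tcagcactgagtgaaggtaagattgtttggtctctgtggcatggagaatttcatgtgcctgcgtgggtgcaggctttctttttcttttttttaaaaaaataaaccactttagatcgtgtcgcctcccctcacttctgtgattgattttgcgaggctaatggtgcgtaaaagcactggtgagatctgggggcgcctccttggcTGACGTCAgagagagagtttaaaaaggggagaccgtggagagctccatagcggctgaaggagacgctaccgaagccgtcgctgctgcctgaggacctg
Scg2: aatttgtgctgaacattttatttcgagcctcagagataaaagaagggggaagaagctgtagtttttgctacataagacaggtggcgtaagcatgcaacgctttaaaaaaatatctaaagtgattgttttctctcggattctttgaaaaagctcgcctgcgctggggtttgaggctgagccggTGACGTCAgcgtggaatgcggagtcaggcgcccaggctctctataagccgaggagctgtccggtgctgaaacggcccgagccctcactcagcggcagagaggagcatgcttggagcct
Chgb: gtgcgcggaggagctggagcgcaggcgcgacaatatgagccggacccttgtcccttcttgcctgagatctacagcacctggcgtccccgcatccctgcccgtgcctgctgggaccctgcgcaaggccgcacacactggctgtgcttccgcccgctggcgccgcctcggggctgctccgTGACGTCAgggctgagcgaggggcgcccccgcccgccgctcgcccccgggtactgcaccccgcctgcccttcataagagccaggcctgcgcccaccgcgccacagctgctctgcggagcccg

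Sst, Vip, Cartpt, Adcyap1, Scg2 and Chgb, 6 of the 20 neuropeptide genes with a promoter, held these letters. Their share was 6.4% among promoters of genes 8-fold or more lower in heart, 4.55% among those 8-fold or more higher, 5.48% among tested genes and 3.33% in the whole table. Cartpt was at least 8.19-fold lower in heart and Adcyap1 at least 5.69-fold lower.

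Glial genes were lower in heart along with neuronal ones. 12 of 13 tested oligodendrocyte genes were called lower. Mbp, myelin basic protein, read 5.82, 5.69, 5.86 and 5.84 in heart, against 13.38, 13.38, 13.52 and 13.41 in brain, a difference of −7.62 (SE 0.09, adjusted p = 6.93e-15). It was detected on all 4 heart arrays as well as all 4 brain arrays. Cldn11 (−7.10), the tight junction claudin of myelin, Olig1 (−6.18), Mag (at least 65.7-fold lower), Mog (at least 21.1-fold lower), Mobp (at least 13.1-fold lower) and Cnp (−3.71) were lower. Of 15 astrocyte genes 12 were lower, or 7 without background correction. Slc1a3, the glutamate transporter GLAST, read 5.87, 5.58, 5.69 and 5.33 in heart, against 12.96, 13.10, 13.00 and 13.05 in brain, a difference of −7.41 (SE 0.11, adjusted p = 2.33e-14). Cldn10 (−5.75), Aqp4 (−3.55), the water channel of astrocyte endfeet, and Slc1a2 (−3.26) followed. Gfap was dim in brain and at least 1.92-fold lower in heart (adjusted p = 1.89e-07). Glul, glutamine synthetase, was not called (0.17).

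Transcription factors and RNA-binding proteins of neurons were lower in part. 13 of 20 tested brain transcription factors were called lower, among them Myt1l (at least 28.2-fold lower), Bcl11b (−4.94), En2 (at least 17.2-fold lower), Zic1 (at least 9.3-fold lower) and Tbr1 (−3.04), and Nfib was called higher, with 8.94 ± 0.12 in heart and 7.30 ± 0.21 in brain (SD, n = 4 each). Without background correction 8 of the 20 were called lower. Of 17 RNA-binding regulators 3 were higher and 6 lower, and 1 was higher without background correction or with an offset of 50. The 3 higher were near the share over all genes tested, of which 18.5% were called higher and 18.7% lower. The neuronal Hu proteins Elavl2 (at least 34-fold lower), Elavl3 (at least 6.93-fold lower) and Elavl4 (at least 3.58-fold lower) and Celf4 (−2.78) were lower. Elavl1 (2.40), the ubiquitous Hu protein, and Rbm24 (at least 1.79-fold higher), a splicing regulator of muscle, were higher. Srrm4, known as a splicing regulator of neurons, was also called higher, at least 2.39-fold higher, on a dim probe at 5.81 in heart and 4.42 in brain.

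Large differences on the brain side that the lists do not hold included Rasgrp1 (at least 205-fold lower), a Ras activator, Sult4a1 (at least 153-fold lower), a brain sulfotransferase, Caln1 (at least 133-fold lower), a calneuron, and Calb2 (at least 71.9-fold lower), the calcium buffer calretinin. B3gat1 (at least 70.2-fold lower), which makes the HNK-1 epitope, Tspoap1 (at least 73.2-fold lower), Fbxo2 (at least 53.2-fold lower), Nrip3 (at least 51.9-fold lower), Tmem130 (at least 73.6-fold lower), Fam155a (at least 67.9-fold lower) and Minar2 (at least 63.4-fold lower) were the others named by the size of their bound. Among genes detected on all 8 arrays, Vsnl1 (−6.92), the calcium sensor visinin-like 1, Kif5c (−6.80), a neuronal kinesin, Rtn1 (−6.82), Rab15 (−6.96), Diras1 (−6.47), Vstm2l (−6.67) and Atp6v1g2 (−6.35), a subunit of the proton pump that loads synaptic vesicles, were lower in heart.

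Cell types that both organs hold differed in their readings. 17 of 19 tested endothelial genes were higher in heart and none lower. Pecam1, the adhesion molecule CD31, read 8.60, 8.64, 8.64 and 8.96 in heart, against 5.65, 5.75, 5.81 and 5.82 in brain, a difference of 2.95 (SE 0.09, adjusted p = 1.41e-11). Cav1 (4.48), which forms caveolae, Gpihbp1 (at least 16.4-fold higher), which holds lipoprotein lipase on the capillary wall, Emcn (3.28) and Cdh5 (2.62) were higher. Aqp1, a water channel of heart capillaries and, in brain, of choroid plexus, differed by 5.47. Kdr, the main receptor for vascular endothelial growth factor, was dim in both tissues and overlapped, at 4.93 ± 0.14 in heart and 4.90 ± 0.17 in brain (SD, n = 4 each). Blood-brain barrier genes went the other way, with all 8 tested called lower, or 6 without background correction and 6 with an offset of 50. Mfsd2a, the barrier's lipid transporter, read 4.17, 4.22, 4.19 and 4.16 in heart, against 8.06, 7.75, 8.06 and 7.65 in brain and was at least 9.66-fold lower in heart (adjusted p = 4.18e-12), and Slco1c1 (at least 5.47-fold lower), the thyroid hormone carrier, was lower too.

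Matrix and fibroblast genes were higher in heart, 21 of 23, with a median of 2.91. Dcn, the collagen-binding proteoglycan decorin, read 12.23, 11.99, 12.21 and 12.01 in heart, against 8.32, 8.19, 8.50 and 8.02 in brain, a difference of 3.85 (SE 0.09, adjusted p = 1.02e-12). Lum (4.82), Bgn (4.43), Fbln2 (3.86), Mgp (3.52), Col1a1 (2.67), Col3a1 (at least 3.86-fold higher) and the basement membrane chains Col4a1 (3.42) and Lama2 (3.13) were higher, while the probes of Sparc (0.46) and Col1a2 (0.10) were not called. 9 of 13 smooth muscle and pericyte genes were higher and none lower, among them Smtn (4.89), Myh11 (2.87) and Acta2 (2.56), and 5 were without background correction.

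Of 17 tested macrophage and microglia genes 8 were higher in heart and 1 lower. Mrc1, the mannose receptor of tissue macrophages, read 8.21, 7.89, 7.90 and 7.59 in heart, against 4.97, 5.26, 4.99 and 5.22 in brain, a difference of 2.79 (SE 0.13, adjusted p = 5.62e-10). F13a1 (3.45), Folr2 (at least 4.61-fold higher), Cd163 (at least 4.32-fold higher), Lyve1 (at least 4.02-fold higher), Cd74 (2.01) and H2-Ab1 (at least 2.47-fold higher) were higher in heart, and so was C1qc (1.12), a complement gene that microglia also express. Cx3cr1, the fractalkine receptor that microglia hold in quantity, read 4.52, 4.48, 4.48 and 4.73 in heart, against 6.23, 5.95, 5.68 and 5.60 in brain, a difference of −1.31 (SE 0.12, adjusted p = 7.69e-07). P2ry12 (−0.84), Trem2 (−0.65) and Tmem119 (−0.13), further microglial genes, were not called. Without background correction 2 of the 17 were called higher and none lower. With an offset of 50, none was lower, and in the deposited values 2 were.

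**Figure D4:**
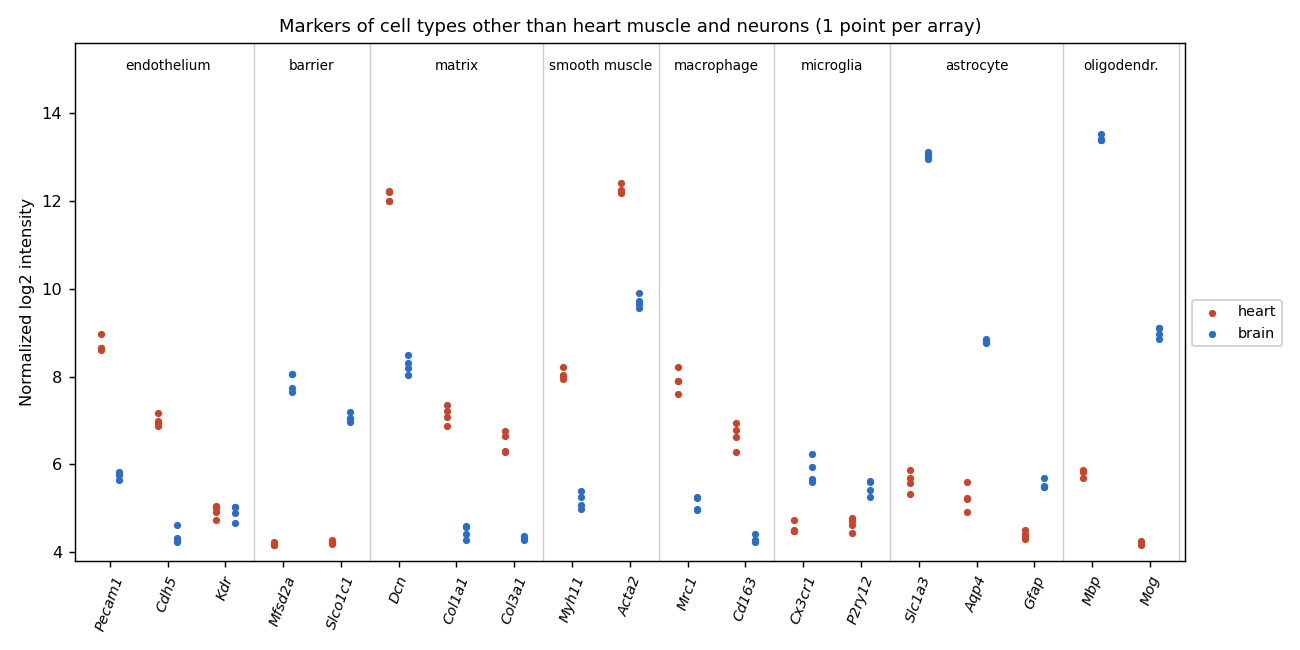
Normalized log2 intensity of markers for endothelium, the blood-brain barrier, matrix, smooth muscle, macrophages, microglia, astrocytes and oligodendrocytes. Red points are 4 wild type heart arrays and blue points, to their right, 4 wild type brain arrays. The groups overlap for Kdr, and for the others heart lies above brain in the endothelial, matrix, smooth muscle and macrophage panels and below it in the barrier, microglia, astrocyte and oligodendrocyte panels.

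Ribosomal and proteasome genes were called less often than all genes tested, under the settings used above. Of 52 tested ribosomal genes 5 were higher and 1 lower, but 15 were higher and none lower when arrays were shifted to a common median. Proteasome genes gave 3 higher and none lower of 30, both shares below the 18.5% over all genes. Without background correction 2 ribosomal and none of the proteasome genes were called higher, and 3 and none were with an offset of 50. Shifted arrays and the deposited values each gave 1 proteasome gene higher, and no ribosomal gene was lower in the deposited values. Among 12 genes of antigen presentation 4 were higher, with B2m (2.09) and Tap2 (2.28) leading, or 2 without background correction. Of 19 cholesterol genes 8 were lower and none higher, from Sqle (−3.89) and Hmgcs1 (−2.53) to Cyp51 (−1.10), and 4 were lower without background correction and 5 with an offset of 50. Brain is known to make its own cholesterol, much of it for myelin. Immediate early genes gave 4 higher and 3 lower of 18. Arc (−3.59), Egr1 (−2.10) and Fos (−2.10) were lower, and Klf2 (2.74), Zfp36 (2.56), Ccn1 (at least 3.93-fold higher) and Klf4 (1.98) higher. Without background correction 2 were called higher, and the count lower was 5 with arrays shifted to a common median, 6 in the deposited values and 5 without mouse 1. Reference genes were not all level across these organs. Of 10 tested, Tubb5 (−2.36), Ywhaz (−2.24) and Hprt (−1.20) were lower and Gusb (1.59) higher, with Gapdh at 0.09 and Actb at −0.55. Over all genes tested 18.5% were called higher and 18.7% lower. Neither this list nor the immediate early one was called clearly more often than that. Gusb was not called without background correction.

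The circadian clock, with tissues taken at 1 age and at a time of day not given in the sources used here, gave 3 calls among 17 genes. Clock genes were thus called less often than all genes tested, of which 18.5% were called higher and 18.7% lower. Nr1d2 (1.21), a nuclear receptor that represses Arntl, was higher, and Rora (−1.22) and Ciart (−1.01) were lower. Without background correction none of these was called, and 1 gene was lower and none higher with an offset of 50. The count lower was also 1 without mouse 1, without mouse 2 and with all 24 arrays normalized together. The others, not called, were Per2 (−0.83), Cry2 (−0.68), Dbp (−0.49), Rorb (−0.49), Per3 (−0.43), Tef (−0.27), Per1 (−0.26), Arntl (−0.14), Clock (0.12), Hlf (0.13), Bhlhe40 (0.29), Nfil3 (0.40) and Nr1d1 (0.89), and Npas2, which was at least 1.56-fold lower. Kctd1 itself was not analysed here. Among 14 tested genes of its family and the AP-2 factors it represses, Kctd9 (1.60) and Kctd12b (at least 2.17-fold higher) were higher, and Kctd4 (at least 2.46-fold lower), Tfap2b (at least 2.4-fold lower), Kctd6 (−1.33) and Kctd5 (−1.28) lower. With 2 higher and 4 lower, this list was not called clearly more often than all genes tested, at 18.5% higher and 18.7% lower. Without background correction none of the 14 was called, and 1 was higher and 2 lower with an offset of 50. Kctd21 averaged 5.39 ± 0.10 in heart and 6.39 ± 0.24 in brain (SD, n = 4 each), just under 2-fold. This gene and Kctd15 (−0.74), Kctd12 (−0.55), Kctd2 (−0.33), Kctd20 (−0.24), Kctd14 (0.06) and Kctd10 (0.55) were not called, nor was Tfap2a, which was at least 1.02-fold lower.

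Markers of other tissues that a dissection can include were read beside these results. Red cell genes Alas2 (2.97), Hbb-b2 (2.90) and Slc4a1 (1.35) were higher in heart and Hba-a1 (0.27) was not called. Of skeletal muscle genes, Acta1 (5.85), Myl1 (4.89), Atp2a1 (1.68) and Tnnt1 (1.19) were higher, Tnnc2 (at least 1.03-fold higher), Tnni2 (at least 1.34-fold higher) and Casq1 (at least 1.28-fold higher) were not called, and Pvalb, which marks fast muscle and also interneurons, was lower, with 5.19, 4.91, 5.30 and 4.59 in heart, against 12.91, 13.02, 13.02 and 12.99 in brain, a difference of −7.98 (SE 0.12, adjusted p = 2.52e-14). Fat markers Adipoq (at least 4.83-fold higher), Ucp1 (at least 4.24-fold higher), Car3 (at least 6.56-fold higher) and Cidea (3.25) were higher, and Cidec (at least 1.33-fold higher), Scd1 (0.82) and Lep (0.44) were not called. Mesothelial Upk3b (3.13), Wt1 (2.77) and Upk1b (1.10) were higher and Msln (at least 1.6-fold higher) was not called. The choroid plexus gene Ttr, transthyretin, read 5.77, 5.04, 5.85 and 5.05 in heart, against 12.70, 12.22, 12.40 and 11.64 in brain, a difference of −6.81 (SE 0.11, adjusted p = 6.46e-14), and Clic6 (−2.42), Otx2 (at least 2.3-fold lower) and Kl (at least 1.71-fold lower) were lower too. Lyz2 (3.99), also a macrophage gene, was higher, and Ager (0.17) of lung, Cd3e (0.09) of T cells and the nerve genes Egr2 (−0.99), S100b (at least 1.2-fold lower) and Ncmap (at least 1.04-fold lower) were not called, while Pmp22 (1.38) was higher. Surfactant and pituitary hormone genes did not pass the filter. The Y-linked Eif2s3y (1.53) was called higher, Kdm5d (0.64) and Uty (0.31) were not, and Xist (at least 1.03-fold higher) was dim. Without background correction 2 skeletal muscle and 2 fat genes were called higher, 2 choroid plexus genes lower (also with an offset of 50), and neither Pmp22 nor Eif2s3y was called. The part of other tissues in the results above was not tested.

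For 8 genes, chosen after their values were seen, the brightest probe was called and a further probe was called in the opposite direction. Genes whose brightest probe was not called were left out of this count. Probes of Illumina arrays can lie in different exons or ends of a gene, and where each lies was not looked up here. Kif1b, a kinesin that carries mitochondria and synaptic vesicle precursors, had a probe at 10.82, 11.01, 10.94 and 11.07 in heart, against 6.02, 6.48, 6.43 and 6.35 in brain, a difference of 4.64 (SE 0.09, adjusted p = 2.35e-13). Its brightest probe read 9.02, 9.14, 9.15 and 9.10 in heart, against 11.70, 11.76, 11.79 and 11.65 in brain, a difference of −2.62 (SE 0.09, adjusted p = 2.42e-11). Syngr1, the synaptic vesicle protein synaptogyrin, read 8.89, 8.86, 8.96 and 8.92 in heart, against 6.15, 6.34, 6.19 and 6.24 in brain on its brightest probe and 4.46, 4.66, 4.31 and 4.33 in heart, against 7.31, 7.30, 7.19 and 6.91 in brain on another. These differed by 2.68 (SE 0.09, adjusted p = 2.9e-11) and −2.74 (SE 0.09, adjusted p = 3.26e-11). Ptpre, a receptor phosphatase, had differences of 3.49 (SE 0.10, adjusted p = 5.98e-12) and −1.99 (SE 0.09, adjusted p = 3.71e-10), while Rbfox1, a splicing factor of muscle and neurons, was at least 2.26-fold higher in heart (adjusted p = 6.15e-07) on a probe that no brain array detected and differed by −1.95 (SE 0.10, adjusted p = 1.5e-09) on its brightest. Klc1, a kinesin light chain, was higher on 1 probe, by 1.62 (SE 0.09, adjusted p = 4.32e-09), and lower on 4, down to −3.75 (SE 0.09, adjusted p = 1.84e-12). The others were Dnajb6, Dusp11 and Tpm2, each with 1 probe higher and 1 lower. In the heterozygous mice each of these probes differed in the same direction as in wild type.

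**Figure D5:**
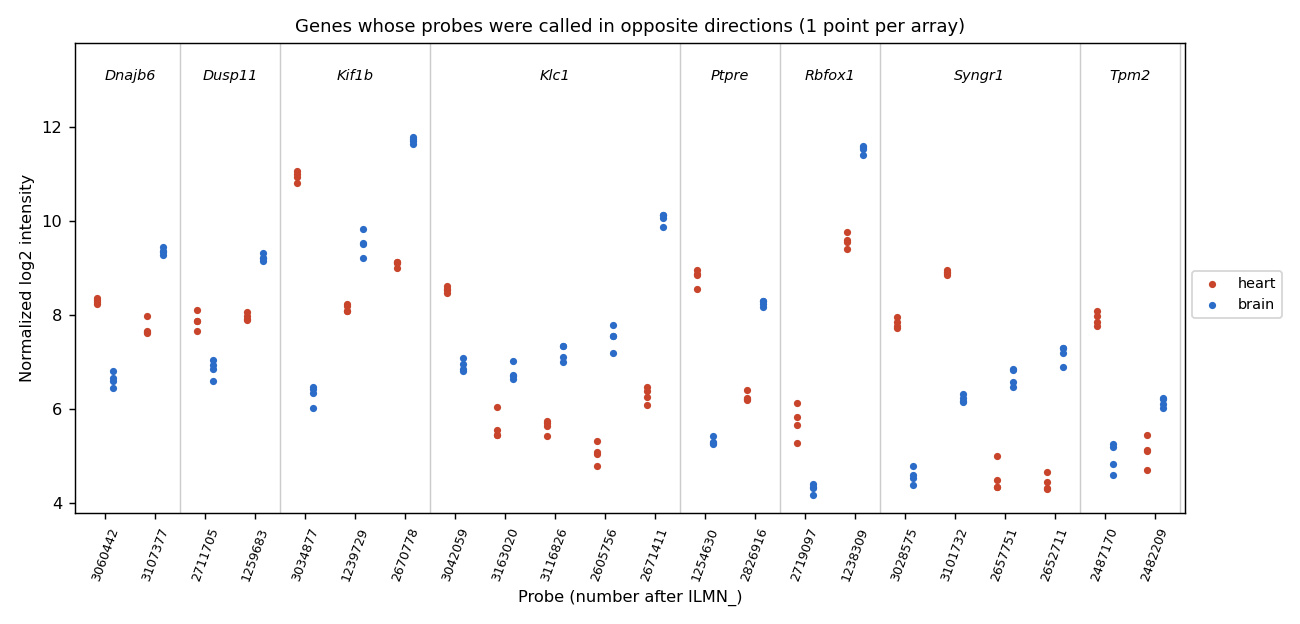
Normalized log2 intensity of the called probes of 8 genes whose probes went opposite ways, grouped by gene, with the probe higher in heart first. Red points are the 4 wild type heart arrays and blue points, to their right, the 4 wild type brain arrays. Within each gene at least 1 probe has all red points above all blue points and at least 1 has them below.

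Where a gene had several tested probes, a further probe was often not called. That was so for 556 of the 1114 called genes with several tested probes, and among the genes named here for Acadl, B3gat1, Camk2g, Ccn1, Fbln2, Gusb, H2-Ab1, Hprt, Kcne1, Kctd12b, Kctd5, Kctd6, Kif1b, Mef2c, Myocd, Myt1l, Pdlim5, Pfkp, Ppp1r1b, Rbfox1, Smtn, Tbx20 and Tfap2b. For Camk2d, Actb and Tef, which were not called by their brightest probe, a further probe was called. Of 272 called genes named here, 52 were under 2-fold when the background was not corrected, and none of them turned its direction under that setting.

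The same comparison in mice heterozygous for the Kctd1 mutation, 4 hearts and 4 brains of other animals, gave 2529 probes higher and 2381 lower of the 14514 tested in wild type. Of the 2624 probes called higher in wild type, 2406 (91.7%) had the same call in heterozygous mice, and of the 2437 called lower 2283 (93.7%) did. All of those called in wild type had the same sign and none was called the opposite way. The 2 sets of differences correlated at 0.994 across probes, which share array type and background and are not independent replicates. A difference between genotypes in heart minus brain, tested as the interaction in limma, passed an adjusted p under 0.05 at 0 of 14982 probes, with 790 (5.27%) under an unadjusted p of 0.05 and a smallest adjusted p of 0.878. A probe that misses this test is not shown to differ equally in both genotypes.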

How the data were processed

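Wild type heart and brain of 4 mice were read on 8 Illumina bead arrays. The deposited raw table holds, per the file headers, a signal intensity and a detection p-value for each probe and array. The submitters' processing notes name GenomeStudio 2011.1. Neither its settings nor the slide and scan of each array are stated in the labels or headers. The authors' deposited value table holds intensity on a linear scale with background subtracted, by its values, and its scaling stays unknown.

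Intensities of the 8 arrays were background-corrected with normexp from the detection p-values, given an offset of 16, quantile-normalized and put on the log2 scale with neqc of limma 3.58.1 in R 4.3.3. A probe was tested where heart or brain had 2 or more arrays with a detection p below 0.05, which kept 14514 of 25697. The difference, heart minus brain, was fitted with lmFit and eBayes and the mouse as a block, with Benjamini-Hochberg adjustment over all 14514 probes. The block was taken because the mouse labels pair the arrays. Same-mouse deviations from the tissue means correlated at 0.0171 to 0.162, against a highest correlation with another mouse of −0.015 to 0.0623, which was above the same-mouse value for mice 2 and 3. Within a tissue each array came from a different mouse. With the mouse as a block, p-values rest on how far the heart minus brain difference varied between these mice. The fit moderates that spread with the spread of all probes.

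Of all probes 23978 were named with 1 gene by the platform annotation, none with several, and 1719 were not listed and stay unnamed. A gene was read by its tested probe with the highest mean over the 8 arrays. Genes named are the 15 largest in each direction among called genes detected on all 8 arrays, the 15 largest by bound among called genes detected on no array of the other tissue, and members of 42 gene lists, all members for the isoform, KCTD, clock, sex and other-tissue lists and mostly the largest called ones for the rest. The members and lists were chosen with earlier results of these data known. Lists were given no test.

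The fit was tested on simulated data with known differences, 200 of 14514 probes being changed in each of 10 runs. At an adjusted p under 0.05 it recovered 96.1% of 2-fold, 54.4% of 1.5-fold and 0% of 1.25-fold changes. Far fewer probes were changed there than differ between these tissues, and no mouse effect was simulated. These shares therefore do not carry over to the comparison above. Alternatives to background, offset, scaling, filter, block, spread and fold threshold, the deposited values and leaving out each mouse were fitted, and their effect is given at the end. Promoters are RefSeq windows of GRCm38.p6, of 300 bases. No probe sequence was used.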

Additional observations from a re-analysis of the deposited data

Results flagged for a closer look

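Among 64 groups of 4 arrays whose single values are printed above or that describe an array, 6 held an array whose gap to the nearest of the others exceeded the share of the group's range that Dixon's test allows at 95%. Chance flags about 1 in 20 such groups, and none of these genes lost its call when the mouse was left out. They were Nppa in heart (mouse 3 at 14.02, the others between 13.86 and 13.86), Nppa in brain (mouse 4 at 4.88, the others between 4.50 and 4.57), Cpt1b in brain (mouse 2 at 5.03, the others between 4.66 and 4.68), Rbfox3 in heart (mouse 4 at 4.73, the others between 4.32 and 4.34), Pecam1 in heart (mouse 4 at 8.96, the others between 8.60 and 8.64) and Cx3cr1 in heart (mouse 4 at 4.73, the others between 4.48 and 4.52), all on the log2 intensity scale.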

How the results depend on the processing

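Taking the mean over a gene's probes turned the sign of Dnajb6 (0.0165) and Ptpre (0.75), whose probes were called in opposite directions. No other called gene named above reversed, and counts moved mainly with the background and the fold threshold. Without background correction 1201 probes were higher in heart and 1232 lower, and in heterozygous mice 2346 were called, because signals then keep the constant background and folds shrink. At 4-fold in place of 2-fold 966 were higher and 1157 lower. An offset of 50 gave 1755 and 1697. Shifting arrays to a common median gave 2650 and 2404, and the deposited values 2503 and 2670. Leaving out each mouse in turn gave 2590 to 2656 probes higher, 2418 to 2463 lower, 10718 to 10898 at an adjusted p under 0.05, and 4849 to 4961 calls in heterozygous mice, and the interaction stayed at 0 probes with a smallest adjusted p of 0.109 to 0.996. With the mice not paired (no replicate block) 2624 were higher and 2437 lower, 11256 passed the adjusted p, and no call of a named gene changed. Of 4725 values of named genes under the alternatives, 108 fell short of a call made above, 14 gained one. Signal near background limits these values, since folds of dim probes rest on the offset and on the faintest detected signal.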
